A study of Mus musculus with 2 samples.

Results

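The genes described here encode the urea cycle enzymes and the enzymes that break down tryptophan, tyrosine, the branched-chain amino acids and several other amino acids, together with urate oxidase. A list of 39 gene symbols defined them. Of these, 30 symbols had a named probe set on the arrays, and Mut was found under its current symbol Mmut, which gave 31 genes of the 15644 named genes on the arrays. The symbols Cps1, Ass1, Acmsd, Sds, Got2, Gls2, Amt and Gstz1l had no named probe set in the annotation used, so these 8 were not analysed here. Gstz1, a different symbol, is treated below as a further gene of the tyrosine pathway.

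Each group was measured on 1 array. The PCN cells were primary hepatocytes of a male C57BL/6 mouse aged 9 weeks, exposed for 12 h to PCN (pregnenolone 16α-carbonitrile) at 10 µmol/l. The control cells were hepatocytes of the same strain, sex and age, which received the solvent dimethyl sulfoxide (DMSO) for the same time. Both had been in culture for 24 h before treatment, and the RNA on each array was a pool of 3 samples. PCN, a steroid made by synthesis, is an agonist of the rodent pregnane X receptor (PXR), which controls genes of drug metabolism. Hepatocytes in culture are known to lose part of their liver-specific expression, which limits both groups as a model of the liver. With 1 pooled array per group there were no replicates, so the spread between cultures is unknown and no test was possible.

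Amino acids that are not needed for protein synthesis lose their nitrogen in the liver, mostly by transfer to glutamate, and their carbon skeletons enter the citric acid cycle, glucose synthesis or ketone bodies. The freed ammonia is toxic, and hepatocytes bind it into urea by a cycle shared between mitochondrion and cytosol, or into glutamine. Many of these enzymes are markers of the differentiated hepatocyte, and several are known to be induced by glucagon and glucocorticoids.

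The values are intensities on a linear scale, and a difference is the log2 intensity with PCN minus that with DMSO. A gene counted as measured when its intensity reached 32 (5 on the log2 scale, called the floor) in at least 1 array. Of the 31 genes, 27 were measured, and each of these 27 reached the floor with PCN and with DMSO. The other 4 lay under it in both arrays. Intensities of different genes come from different probes and are not compared with each other. The median intensity of all probe sets was 14.1 in the PCN array and 14.4 in the DMSO array. Over 40 bacterial and phage control probe sets the difference averaged -0.03 with an SD of 0.10. It ran from -0.33 to 0.16, called the control range below. It shows array spread only, without differences between cultures. Of 7 PXR target genes listed as a check, 6 (85.7%) lay above the control range, beside 21.7% of all measured genes. Higher by 1.5-fold or more were 5 (71.4%), beside 0.636% of all measured genes. Cyp2b10 alone lay within the control range, and was under the floor with DMSO. This list, too, was chosen with earlier results of these data known. All 13 hepatocyte markers with a probe set, such as Alb and Ttr, were measured, with differences from -0.15 to 0.07, within the control range. Of these markers 11 (84.6%) were lower and 2 higher, with a median of -0.03, whereas 42.4% of all measured genes were lower. Of the markers of other liver cells, 1 of 11 for Kupffer cells and leukocytes, 2 of 10 for stellate cells and fibroblasts, 2 of 8 for endothelium and 2 of 5 for bile ducts reached the floor. The Kupffer cell marker Clec4f, the stellate cell marker Lrat and the bile duct marker Epcam did not reach it. Some markers lay well above it. Cd68, of the Kupffer cell and leukocyte list, stood at 1626 with PCN and 1690 with DMSO. Dcn, of the stellate cell and fibroblast list, stood at 313 with PCN and 351 with DMSO. Acta2 of the same list and the endothelial Stab2 reached the floor in at least 1 array. Outside the control range were Krt19 at 0.40 and Sox9 at -0.42 for bile ducts and the endothelial Lyve1 at 0.31 or more, and their part in the results was not tested.

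Genes of amino acid breakdown were mostly lower with PCN. Of the 27 measured genes, 22 (81.5%) were lower and 5 higher, whereas 42.4% of all 6449 measured genes were lower. Their median difference was -0.17, beside 0.03 for all measured genes. Only Tdo2 and Arg1 were lower by 1.5-fold or more, 7.41% of the measured members beside 1.30% of all measured genes, and no member was higher by that much, beside 0.636% of all. Below the control range lay 7 of the 27 (25.9%), beside 5.61% of all measured genes, and above it lay 1 (3.70%), beside 21.7%. The other 19 members stayed within the control range. In these arrays of whole cultures, fewer hepatocytes and less of an RNA per hepatocyte cannot be told apart.

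**Figure D1:**
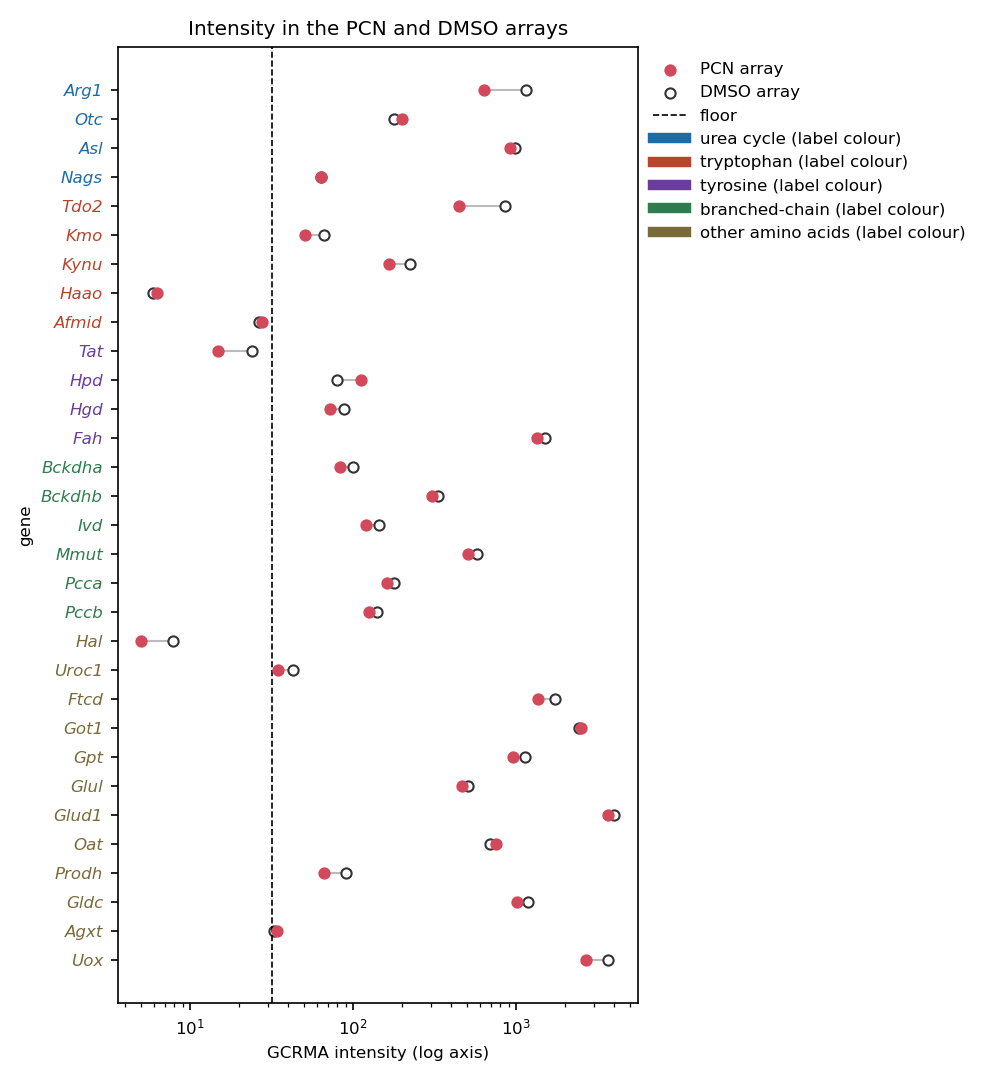
Intensity (log axis) of the 31 genes with a probe set in the PCN array (filled) and the DMSO array (open), 1 array each, with the floor at 32 as a dashed line. The PCN point lies well to the left for Tdo2 and Arg1 and to the right for Hpd, and Haao, Afmid, Tat and Hal lie under the floor in both arrays.

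**Figure D2:**
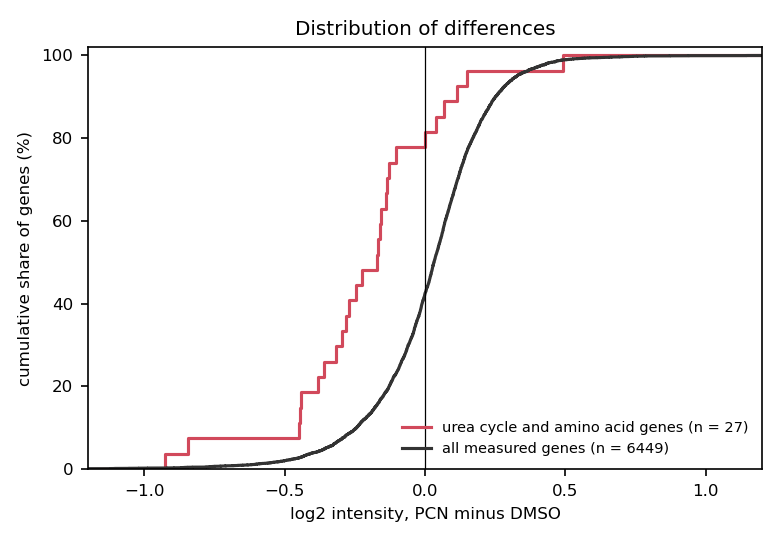
Cumulative share of genes by log2 difference (PCN minus DMSO), for the 27 measured urea cycle and amino acid genes and for all 6449 measured genes. The curve of the 27 genes lies to the left of that of all genes over most of its course, with medians of -0.17 and 0.03, and their highest value is 0.49 for Hpd.

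The upstream sequence of Tdo2, the lowest member, is shown with those of Uox, another lower member, and Hpd, the highest member. The stretch in front of each gene can thus be read beside its values. No such stretch was available for Arg1, the other member past 1.5-fold, or for Kynu. Uox was not picked by rank, as Prodh was slightly lower. Only Uox and Hgd, 2 of 22 members with such a stretch, hold the C/EBP letters named below. The printed stretches are therefore examples and do not represent the members. Each is the 250 bases before the annotated start of the gene in RefSeq, build GRCm38.p6, 5′ to 3′ on the gene's own strand. Tdo2 lies on the minus strand, with the printed bases at chr3:81975729-81975978. Uox lies on the plus strand at chr3:146596899-146597148, and Hpd on the minus strand at chr5:123182724-123182973. Capitals mark every match, on either strand, to TTGCNNAA (a C/EBP motif), AGGTCA or AGTTCA (nuclear receptor half-sites), TGTTCT (a glucocorticoid receptor half-site) or TATAAA (the core of a TATA box). None of the marked matches overlap each other.
Tdo2: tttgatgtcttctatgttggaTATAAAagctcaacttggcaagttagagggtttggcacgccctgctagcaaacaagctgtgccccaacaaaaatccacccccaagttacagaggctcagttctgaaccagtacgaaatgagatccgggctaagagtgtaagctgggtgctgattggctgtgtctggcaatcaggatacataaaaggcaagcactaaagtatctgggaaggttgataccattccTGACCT
Uox: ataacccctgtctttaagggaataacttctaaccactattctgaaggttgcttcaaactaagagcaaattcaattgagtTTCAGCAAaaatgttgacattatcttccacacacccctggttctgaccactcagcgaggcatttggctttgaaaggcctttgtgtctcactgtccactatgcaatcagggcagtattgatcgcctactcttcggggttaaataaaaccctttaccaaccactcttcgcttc
Hpd: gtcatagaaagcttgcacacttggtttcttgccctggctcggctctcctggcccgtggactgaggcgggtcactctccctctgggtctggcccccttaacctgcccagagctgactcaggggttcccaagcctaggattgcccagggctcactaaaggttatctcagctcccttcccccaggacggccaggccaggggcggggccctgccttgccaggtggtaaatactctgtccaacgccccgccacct
In Tdo2 the marks are TATAAA, from base -229 to -224 before the start, and AGGTCA on the opposite strand, in the last bases before the start (-6 to -1). In Uox the mark is TTGCNNAA on the opposite strand, at -171 to -164. The Hpd stretch holds no match to these letters.

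RefSeq gave such a stretch for 22 of the 27 measured members, 24 stretches in all since Bckdhb and Pcca have 2 each. AGGTCA or its complement was in 8 of the 24 (33.3%), those of Bckdhb, Glul, Got1, Hgd, Nags, Pcca, Tdo2 and Uroc1. The share was 11.1% of the 6792 stretches of all measured genes and 14.0% of the 32851 stretches of all genes. TTGCNNAA was in 2 of the 24 (8.33%), those of Hgd and Uox, beside 8.32% for measured genes. AGTTCA was in 3 (12.5%, beside 8.51%), TGTTCT in 3 (12.5%, beside 10.9%) and TATAAA in 3 (12.5%, beside 6.52%). The genes with AGGTCA had differences from -0.93 for Tdo2 to 0.04 for Got1, and all of them except Tdo2 lay within the control range. A relation of these letters to the differences was not tested. A match of 6 letters is a description and not a binding site.

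Of the urea cycle genes, Arg1 stood apart from the other measured enzymes of the cycle. Arg1, the arginase that splits arginine into urea and ornithine, had an intensity of 638 with PCN, against 1146 with DMSO. This was 1.80-fold lower, a difference of -0.85, the 28th lowest of all 6449 measured genes. Asl, argininosuccinate lyase, which makes the arginine that Arg1 uses, stood at 914 with PCN and 981 with DMSO (-0.10). Otc, ornithine transcarbamylase, the mitochondrial enzyme that turns ornithine into citrulline, stood at 199 with PCN and 180 with DMSO (0.15). Nags, which makes the N-acetylglutamate that activates carbamoyl phosphate synthesis, had intensities of 63.47 with PCN and 63.53 with DMSO. Asl, Otc and Nags thus lay within the control range, on both sides of 0. The median of the 4 measured genes was -0.05, with 3 lower and 1 higher.

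Further genes around the urea cycle, on a list of 12 transporters and enzymes, were divided, with 4 of 9 measured genes higher and 5 lower and a median of -0.15. None was lower or higher by 1.5-fold. The highest was Slc25a15, the carrier that brings ornithine into the mitochondrion, at 137 with PCN and 93.3 with DMSO, which is 1.47-fold higher (0.56). The lowest was Slc38a3, a glutamine transporter of the plasma membrane, at 546 with PCN and 655 with DMSO (-0.26). Arg2, the mitochondrial arginase, was under the floor in both arrays, at 4.91 with PCN and 4.46 with DMSO.

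Genes that act on ornithine, the product of Arg1, did not share its direction. Beside Otc and Slc25a15, Oat, the mitochondrial ornithine aminotransferase, stood at 752 with PCN and 694 with DMSO (0.12). Odc1, ornithine decarboxylase, the entry to polyamine synthesis, stood at 395 with PCN and 226 with DMSO, 1.75-fold higher (0.81). All 4 were thus higher with PCN, as were 3714 of all 6449 measured genes, while Arg1 was lower. Otc and Oat stayed within the control range, and Slc25a15 and Odc1 lay above it. Grouping these 5 genes was done after their values were seen.

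The tryptophan pathway was the group with the lowest median, -0.45. Of its 6 listed members 3 were measured, and all 3 lay below the control range, beside 5.61% of all measured genes. Tdo2, tryptophan 2,3-dioxygenase, opens the ring of tryptophan in the step that commits it to the kynurenine pathway. Its intensity was 448 with PCN, against 851 with DMSO, 1.90-fold lower (-0.93), the 17th lowest of the 6449 measured genes. Kynu, kynureninase, which cleaves 3-hydroxykynurenine, stood at 165 with PCN and 225 with DMSO, 1.36-fold lower (-0.45). Kmo, kynurenine 3-monooxygenase of the outer mitochondrial membrane, stood at 50.8 with PCN and 66.2 with DMSO, 1.30-fold lower (-0.38). Kmo was near the floor, and with a floor of 6 on the log2 scale its difference shrank to -0.05, as the PCN value was then raised to the floor. That value is inside the control range, so the place of Kmo below the range depends on the floor. Afmid, the formamidase between Tdo2 and Kmo, was under the floor, with 27.8 for PCN and 26.3 for DMSO. Haao, which opens the ring of 3-hydroxyanthranilate, had 6.31 with PCN and 5.90 with DMSO, also under the floor.

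Of 9 further tryptophan genes, 5 were measured, 4 of them lower and 1 higher, with a median of -0.28. Qprt, which turns quinolinate, the product of the pathway, into a precursor of NAD, stood at 288 with PCN and 431 with DMSO. This was 1.49-fold lower (-0.58), just short of 1.5-fold. Kyat1, a kynurenine aminotransferase on a side branch, stood at 50.0 with PCN and 46.9 with DMSO (0.09). Ido1 and Ido2, further dioxygenases of the tryptophan list, were under the floor in both arrays, the higher of them at 6.31 with PCN.

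The tyrosine pathway was divided, and it held the highest member. Hpd, the dioxygenase that turns 4-hydroxyphenylpyruvate into homogentisate, had an intensity of 111 with PCN, against 79.3 with DMSO. This was 1.41-fold higher (0.49), the 73rd highest of 6449 measured genes and the sole member above the control range. The members after Hpd in the pathway lay within the control range. Hgd, which opens the ring of homogentisate, stood at 72.0 with PCN and 88.2 with DMSO (-0.29). Fah, fumarylacetoacetate hydrolase, the last enzyme of the pathway, stood at 1344 with PCN and 1512 with DMSO (-0.17). Tat, tyrosine aminotransferase, the entry enzyme and a classic glucocorticoid target, was under the floor in both arrays, at 14.9 with PCN and 23.9 with DMSO, so no difference is given. Gstz1, the maleylacetoacetate isomerase between Hgd and Fah, stood at 440 with PCN and 556 with DMSO, 1.26-fold lower (-0.34). It was the lowest of 8 measured further genes for phenylalanine and tyrosine, 6 of them lower and 2 higher, with a median of -0.12. The highest was Gch1, the first enzyme of tetrahydrobiopterin synthesis, at 267 with PCN and 244 with DMSO (0.13).

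**Figure D3:**
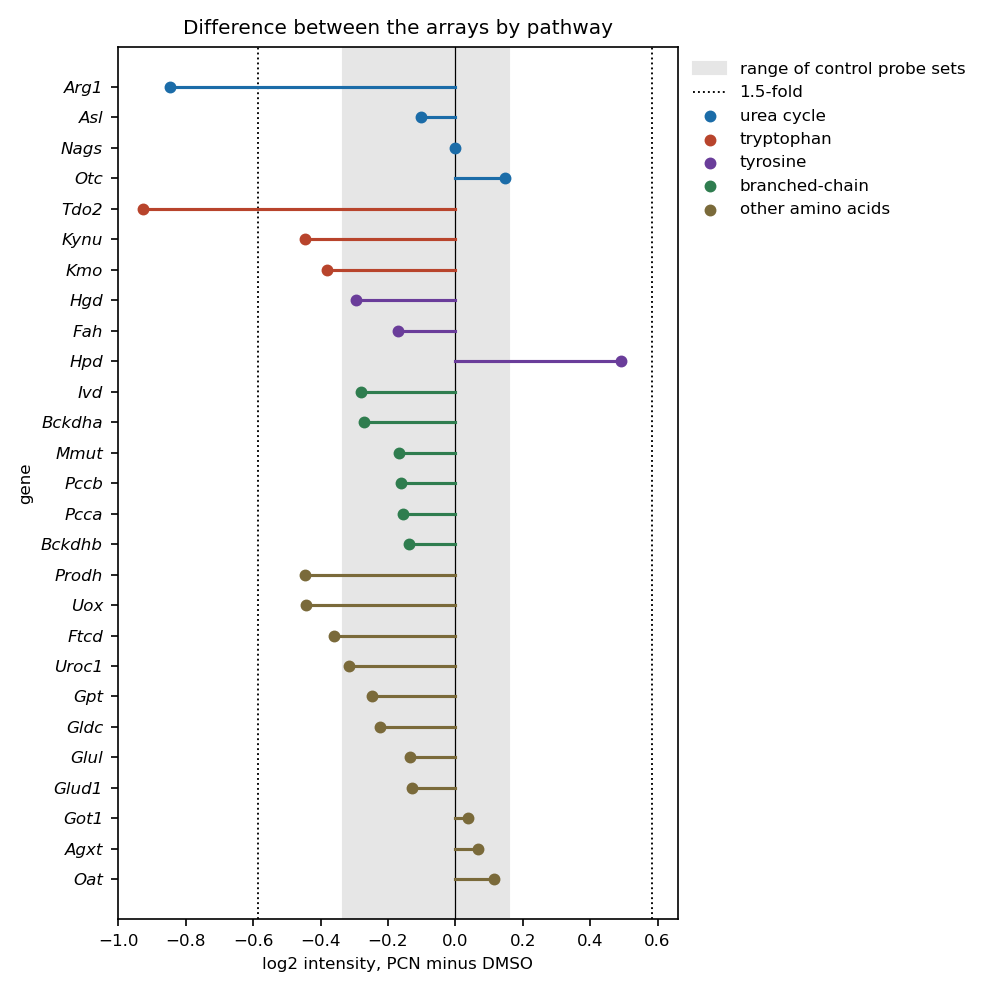
Log2 difference (PCN minus DMSO) of the 27 measured genes by pathway, with the range of the 40 control probe sets shaded (-0.33 to 0.16) and 1.5-fold as dotted lines. Tdo2 and Arg1 lie beyond the left dotted line, Hpd is the sole gene right of the shaded range, and the 6 branched-chain genes lie close together left of 0.

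The branched-chain genes were lower by small and similar amounts. All 6 were lower, with a median of -0.16 and a narrow range from -0.28 to -0.14, and all 6 were within the control range. Ivd, isovaleryl-CoA dehydrogenase of leucine breakdown, stood at 119 with PCN and 145 with DMSO (-0.28). Bckdha and Bckdhb encode both subunits of the decarboxylase of the branched-chain ketoacid dehydrogenase complex. Bckdha stood at 83.4 with PCN and 101 with DMSO (-0.27), and Bckdhb at 303 with PCN and 334 with DMSO (-0.14). The subunits of propionyl-CoA carboxylase were nearly equal in their difference. Pcca stood at 161 with PCN and 179 with DMSO (-0.16), and Pccb at 125 with PCN and 140 with DMSO (-0.16). Mut (Mmut), methylmalonyl-CoA mutase, the next step of propionate use, stood at 510 with PCN and 573 with DMSO (-0.17).

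Among 18 measured further genes for branched-chain amino acids and propionate, 14 were lower and 4 higher, with a median of -0.10. Mmaa, which handles the cobalamin cofactor of Mut, was the one past 1.5-fold, at 50.0 with PCN and 85.6 with DMSO, 1.71-fold lower (-0.77). The highest was Dbt, the acyltransferase subunit of the ketoacid dehydrogenase complex, at 367 with PCN and 337 with DMSO (0.13), within the control range as Bckdha and Bckdhb of the same complex were.

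The remaining members, on other amino acids and urate, had a median of -0.22, with 8 of 11 measured genes lower and 3 higher. For histidine, Ftcd, a folate-dependent enzyme of the last steps, stood at 1359 with PCN and 1745 with DMSO, 1.28-fold lower (-0.36). Uroc1, urocanase, stood at 34.6 with PCN and 43.1 with DMSO (-0.32), close to the floor. Hal, the histidase that starts the pathway, was under the floor, at 5.02 with PCN and 7.88 with DMSO. Both measured histidine genes were thus lower, Ftcd below the control range and Uroc1 within it. Of 6 further histidine genes 2 were measured, and these were Hnmt, which methylates histamine, at -0.14 and Cndp2, a cytosolic dipeptidase, at 0.13.

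For proline, Prodh, proline dehydrogenase of the mitochondrion, stood at 66.2 with PCN and 90.2 with DMSO, 1.36-fold lower (-0.45). It was the lowest of the 12 measured mitochondrial members and the one among them below the control range. Kmo of the outer mitochondrial membrane, also below that range, was counted apart from these 12. Aldh4a1, the next enzyme of proline breakdown, stood at 48.6 with PCN and 52.5 with DMSO (-0.11). Uox, urate oxidase, the peroxisomal enzyme that lets mice convert urate onward to allantoin, stood at 2684 with PCN and 3648 with DMSO, 1.36-fold lower (-0.44). Its neighbours in urate handling lay near 0, with Xdh, which makes urate, at 0.05 and Urah, which acts on the product of Uox, at -0.04.

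The members Gldc and Agxt, of glycine and glyoxylate use, stayed within the control range. Gldc, the decarboxylase of the glycine cleavage system, stood at 1010 with PCN and 1180 with DMSO (-0.22). Agxt, alanine-glyoxylate aminotransferase, stood at 34.1 with PCN and 32.5 with DMSO (0.07), just above the floor. Of 13 measured further genes for serine, glycine and glyoxylate, 7 were higher and 6 were lower, and their median was 0.02. The highest was Hao1, the glycolate oxidase that makes glyoxylate, at 254 with PCN and 210 with DMSO (0.28), and the lowest was Pipox, a peroxisomal sarcosine and pipecolate oxidase, at 390 with PCN and 545 with DMSO (-0.48). Hao1 lay above and Pipox below the control range, and the other 11 within it.

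Of the members that move nitrogen by way of glutamate, Got1, Glud1, Glul and Gpt all lay within the control range. Got1, the cytosolic aspartate aminotransferase, stood at 2492 with PCN and 2426 with DMSO (0.04). Glud1, glutamate dehydrogenase, which frees ammonia from glutamate, stood at 3674 with PCN and 4014 with DMSO (-0.13). Glul, glutamine synthetase, which binds ammonia, stood at 465 with PCN and 511 with DMSO (-0.13). Gpt, alanine aminotransferase 1, stood at 964 with PCN and 1143 with DMSO (-0.25). Gpt2, its mitochondrial relative on the list of further genes, stood at 1860 with PCN and 2952 with DMSO, 1.59-fold lower (-0.67). Gpt2 thus lay below the control range, whereas Gpt did not. Abat, which transaminates gamma-aminobutyrate, stood at 55.1 with PCN and 103 with DMSO, 1.87-fold lower (-0.90). Of the 6 measured genes on that list 5 were lower, with a median of -0.25, and the highest was Asrgl1, an asparaginase, at 0.0055.

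By cell compartment, 10 of 12 measured cytosolic members and 10 of 12 measured mitochondrial members were lower. Each share was 83.3%, beside 42.4% of all measured genes. The median was -0.27 for the cytosolic members, which ran from -0.93 for Tdo2 to 0.49 for Hpd. It was -0.16 for the mitochondrial members, which ran from -0.45 for Prodh to 0.15 for Otc. Both genes past 1.5-fold, Tdo2 and Arg1, encode cytosolic enzymes. Below the control range lay 4 cytosolic members (33.3%) and 1 mitochondrial member (8.33%), beside 5.61% of all measured genes. Kmo of the outer mitochondrial membrane (-0.38) and Uox of the peroxisome (-0.44), both counted apart, also lay below it. The compartments were assigned from textbook knowledge of the enzymes, and the difference between them was not tested.

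Over all the lists of further pathway genes together, 79 of 109 genes with a probe set were measured. Of these 51 (64.6%) were lower, beside 42.4% of all measured genes, and 28 were higher. Their median was -0.08, so the direction was that of the members and the median lay closer to that of all genes. Lower by 1.5-fold or more were 5 of the 79 (6.33%), beside the 1.30% of all measured genes, namely Mmaa, Gpt2, Abat, Cdo1 and Csad. Odc1 alone was higher by 1.5-fold (1.27%, beside 0.636% of all measured genes).

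Transcription factors and receptors known to control such genes were listed as well, and 15 of 22 with a probe set were measured. Of these, 10 (66.7%) were lower, beside 42.4% of all measured genes, and 5 were higher, with a median of -0.04. Cebpa, a transcription factor of differentiated hepatocytes that is known to be needed for urea cycle genes in mice, stood at 219 with PCN and 400.5 with DMSO, 1.82-fold lower (-0.87). Gcgr, the receptor of glucagon, stood at 32.4 with PCN and 54.9 with DMSO, 1.69-fold lower (-0.76), with the PCN value just above the floor. Ppara, a lipid-sensing receptor, stood at 266 with PCN and 377 with DMSO (-0.50), and the liver factor Foxa3 at 141 with PCN and 178 with DMSO (-0.34). These 4 (26.7%, beside 5.61% of all measured genes) lay below the control range and the other 11 within it. Cebpa and Gcgr, past 1.5-fold, were 13.3% of the measured regulators, beside 1.30% of all measured genes. Hnf4a, a nuclear receptor of hepatocyte identity, was at -0.21, Foxa2 at -0.14 and Foxa1 at -0.04. The C/EBP relatives Cebpb and Cebpd were at 0.13 and -0.12. Nr3c1, the glucocorticoid receptor, was at 0.09, and Nr1i2, the gene of PXR, at -0.04. Foxo1 was at 0.0026, Atf4 at -0.02, Sirt1 at 0.07 and Creb1 at 0.0060. Klf15 and Ppargc1a, which are known to promote amino acid breakdown in fasting, did not reach the floor in either array. The part of these regulators in the members' differences was not tested.

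**Figure D4:**
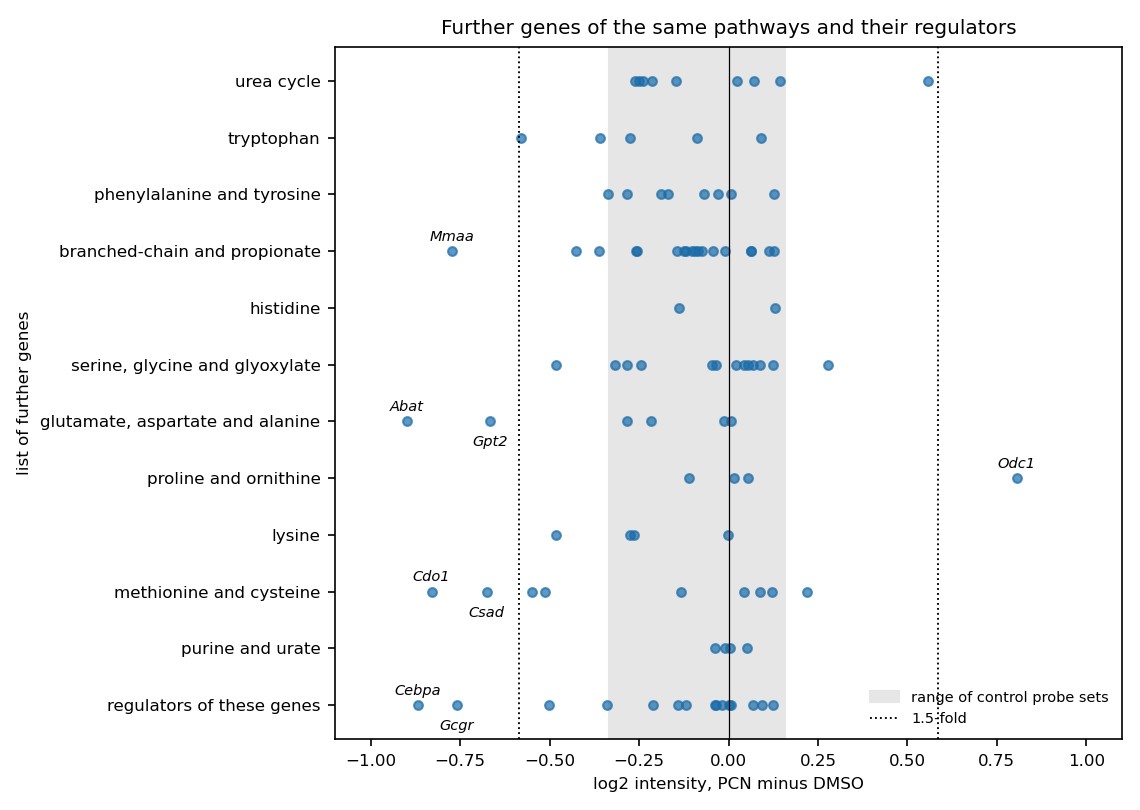
Log2 difference (PCN minus DMSO) of the measured further genes, a row for each list and a point for each gene, with the control range shaded and genes past the dotted 1.5-fold lines named. Mmaa, Abat, Gpt2, Cdo1 and Csad among the pathway genes and Cebpa and Gcgr among the regulators lie beyond 1.5-fold on the left, and Odc1 on the right.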

How the data were processed

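The authors' deposited values were GCRMA intensities on a linear scale, from 1.13 to 28482, for 16395 probe sets on 2 arrays. They were made with GCRMA 2.2.0, per the submitters' processing notes, and per the labels' protocols each array received cRNA from 5 µg of RNA pooled from 3 samples. The sources used here state neither the genome build nor the probe set definition. Each named gene had a single probe set, and that of Mmut was named by its Entrez gene number. GCRMA as usually run scales arrays to each other, so total RNA per cell is not measured by these intensities. Precision is limited by the number of arrays, and sequencing depth does not apply.

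Log2 differences, PCN minus DMSO, were taken in Python (3.11.15) with numpy (2.4.6) and pandas (2.3.3). Where 1 of the arrays lay under the floor, its value was set to the floor, which makes the difference a lower bound. The calculation was tested on simulated data. Members and lists were chosen with earlier results of these data known. Named were all members, all measured regulators, and further genes at least 1.5-fold apart or the extreme of their list in either direction. Symbols came from the platform annotation, and synonyms and upstream sequences from RefSeq (GRCm38.p6). The alternatives were other floors, scalings and size thresholds. Batch and treatment cannot be told apart with 1 array per group.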

Additional observations from a re-analysis of the deposited data

How the results depend on the processing

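The number of members at least 1.5-fold apart was 2 with a floor of 4 or 6 on the log2 scale, with low values as deposited, and with quantile normalization, median centring or a loess trend removed (statsmodels 0.14.6, fraction 0.3). It was 4 without a floor, where the dim genes Tat and Hal were added. In these settings 1.04% to 1.58% of all measured genes were lower by 1.5-fold or more, and 0.543% to 0.822% were higher. At a lower threshold of 0.32 on the log2 scale it was 8 of 27, beside 6.17% of all measured genes lower and 5.27% higher. At 2-fold it was 0, beside 0.233% of all measured genes lower and 0.093% higher. Between 20 and 24 members were lower in every one of these settings, beside 40.5% to 50% of all measured genes. The median over all members ran from -0.21 to -0.17. Each pathway median stayed within the SD of the control probe sets (0.10) of its reported value. Of 186 member values in the 7 settings of floor and scaling, 185 moved by less than that SD, Kmo with a floor of 6 moved by more, and none changed sign. The median of all measured genes lay between 0.00 and 0.04 under every setting. No paired analysis was possible because there was a single array for PCN and for DMSO, and no replicate could be left out. Signal near the floor limits Kmo, Uroc1, Agxt, Nags and the 4 members under it.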

Other observations

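Sulfur amino acid genes, a list apart from the members, held some of the lowest values among the further genes. Of 9 measured genes 5 were lower and 4 higher with PCN, with a median log2 difference of -0.13. Below the control range lay 4 (44.4%), beside 5.61% of all measured genes, and above it 1 (11.1%), beside 21.7%. Cdo1, cysteine dioxygenase, which starts the oxidation of cysteine, stood at 1768 with PCN and 3144 with DMSO, 1.78-fold lower (-0.83). Csad, the decarboxylase that follows it on the way to taurine, stood at 157 with PCN and 251 with DMSO, 1.60-fold lower (-0.68). Mat1a, which makes S-adenosylmethionine in the adult liver, was the highest, at 131 with PCN and 113 with DMSO (0.22), above the control range. The lysine list had 4 measured genes, all lower, from -0.48 for Pipox to -0.0013 for Aass, the entry enzyme of lysine breakdown.

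Genes of the periportal zone of the liver lobule, where the urea cycle is concentrated, did not share a direction. Of 5 measured periportal markers 3 were higher and 2 lower. Arg1 was at -0.85 and Asl at -0.10, while Otc was at 0.15. The markers outside the urea cycle were Cyp2f2, a cytochrome P450, at 0.30 and Cdh1, E-cadherin, at 0.14. Of 8 measured pericentral markers 4 were higher and 4 lower, with Glul at -0.13 and Oat at 0.12, between Gulo at -0.46 and Rgn at 0.39. Single markers other than the members were named after their values were seen.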
